A study of Mus musculus with 23 samples.

Results

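TGF-beta 1 (Tgfb1), the integrin chain that releases it (Itgb8), its 3 receptors (Tgfbr1, Tgfbr2, Tgfbr3), the Smad proteins Smad2, Smad3 and Smad7 and the corepressors Ski and Skil were followed across sorted mouse CD4+ T cells. Every probe set annotated to 1 of these genes alone was taken, which gave 22 of 45037 probe sets and 10 of 18193 genes. Cells were sorted by 2 surface proteins, CD25 (an interleukin-2 receptor subunit) and CD49f (the alpha 6 integrin subunit). The CD25+CD49f+ population was on 4 arrays, CD25+CD49f- on 5, CD25-CD49f+ on 7 and CD25-CD49f- on 7. The labels call the arrays biological replicates from female mice, and strain, age and tissue are not stated in them. No genotype or treatment is given for any group. Total RNA was hybridised as biotin-labelled cRNA to Affymetrix arrays, and every value below is a log2 expression level made by the authors with RMA, or a difference between such levels.

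TGF-beta is secreted in a latent complex, and integrins containing the beta 8 chain free the active ligand on regulatory T cells and other cells. The active ligand binds the type II receptor, which joins and activates the type I receptor, and betaglycan, the type III receptor, presents ligand to them. The type I receptor phosphorylates Smad2 and Smad3, which enter the nucleus with Smad4. Smad7 turns the receptors off, and Ski and Skil (SnoN) bind Smads on target genes and repress them. In CD4+ T cells the pathway is known for inducing Foxp3, on which regulatory T cells depend, and for restraining effector differentiation.

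Some measured features of the arrays touch the results. Replicates 1 and 7 of CD25-CD49f-, replicate 1 of CD25-CD49f+ and replicate 5 of CD25+CD49f- stood apart: their median correlation with the other arrays of their group was 0.967 to 0.981, against 0.989 to 0.995 for the rest. The Actb 3′ minus 5′ control difference, a sign of RNA quality, was 4.83 for CD25+CD49f- replicate 5 and 2.70 for CD25-CD49f- replicate 1, against 1.22 to 2.09 for the rest; the other two arrays that stood apart were within that range. All were labelled female, yet 10 arrays had Y-linked transcripts without Xist, 12 had Xist without Y-linked transcripts and 1 (CD25+CD49f- replicate 5) had both. Both kinds of array occurred in every group, at 2 and 2 in CD25+CD49f+, 2 and 2 in CD25+CD49f-, 3 and 4 in CD25-CD49f+ and 3 and 4 in CD25-CD49f- cells. Where Xist was missing its signal reached 6.50, and 8 of the 22 probe sets had every group mean under that level, called the absent range below. It is a rough guide, since background differs between probe sets: the Y-linked Eif2s3y and Kdm5d reached at most 4.07 where they were missing. The 5 measured CD4 T cell markers were above it in all groups (array means 10.7 to 11.4). Il2ra, which encodes CD25, averaged 9.60 in CD25+CD49f+, 9.69 in CD25+CD49f-, 6.84 in CD25-CD49f+ and 5.42 in CD25-CD49f- cells. The 4 regulatory T cell markers (Foxp3, Il2ra, Ikzf2 and Ctla4) averaged 10.69, 10.54, 9.15 and 6.38 over the groups in that order. All 4 were called higher in each pairwise comparison but that of CD25+CD49f+ with CD25+CD49f- cells, where 0 were called. Markers of myeloid and dendritic cells (9 of 9 measured) averaged 6.31 to 6.96 over CD25+CD49f+ arrays, 6.54 to 6.98 over CD25+CD49f- arrays, 6.69 to 7.27 over CD25-CD49f+ arrays and 6.87 to 8.13 over CD25-CD49f- arrays, with 6, 5, 4 and 2 of the 9 in the absent range in that order. Against CD25-CD49f- cells, 5 of the 9 were called lower in CD25+CD49f+, 3 in CD25+CD49f- and 5 in CD25-CD49f+ cells. In CD25+CD49f- cells 2 were higher than in CD25+CD49f+ cells and 2 higher than in CD25-CD49f+ cells. H2-Aa averaged 9.13 in CD25+CD49f+ and 10.83 in CD25+CD49f- cells, and Adgre1 6.27 and 7.21. Itgax averaged 6.22, 6.16, 6.66 and 8.58 over the 4 groups in the order above. The 3 measured neutrophil markers averaged 7.45 to 8.51 over CD25+CD49f+ arrays, 7.63 to 8.48 over CD25+CD49f- arrays, 8.57 to 9.49 over CD25-CD49f+ arrays and 8.02 to 9.19 over CD25-CD49f- arrays. Of these Mpo averaged 6.48, 5.96, 7.94 and 7.72 in that order, and 1 of the 3 was called lower in each comparison of a CD25+ with a CD25- group. The part of these markers in the results was not tested. Because whole sorted populations were measured, fewer cells expressing a gene and less RNA per cell cannot be told apart.

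Of the 10 genes, 7 had a called probe set between CD25+CD49f- and CD25-CD49f- cells and 0 between CD25+CD49f+ and CD25+CD49f- cells. By brightest probe set alone, 4 genes were higher and 3 lower in the first comparison, beside 13.1% of all 18193 genes passing. In the second, 0 of the 10 passed by that measure, beside 1.66% of all genes. At so low a share, 0 of 10 genes is unremarkable. Itgb8, Tgfbr1 and Skil were higher in CD25+CD49f+ and in CD25+CD49f- cells than in CD25-CD49f- cells, and Tgfbr2, Tgfbr3 and Smad7 were lower. Smad3 was higher in CD25+CD49f- and in CD25-CD49f+ cells than in CD25-CD49f- cells. Tgfb1 and Smad2 passed the test in no comparison. A difference was called when its limma p-value, adjusted by the Benjamini-Hochberg method over all 45037 probe sets, was under 0.05. The comparisons share groups of arrays and are not independent of each other.

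**Figure D1:**
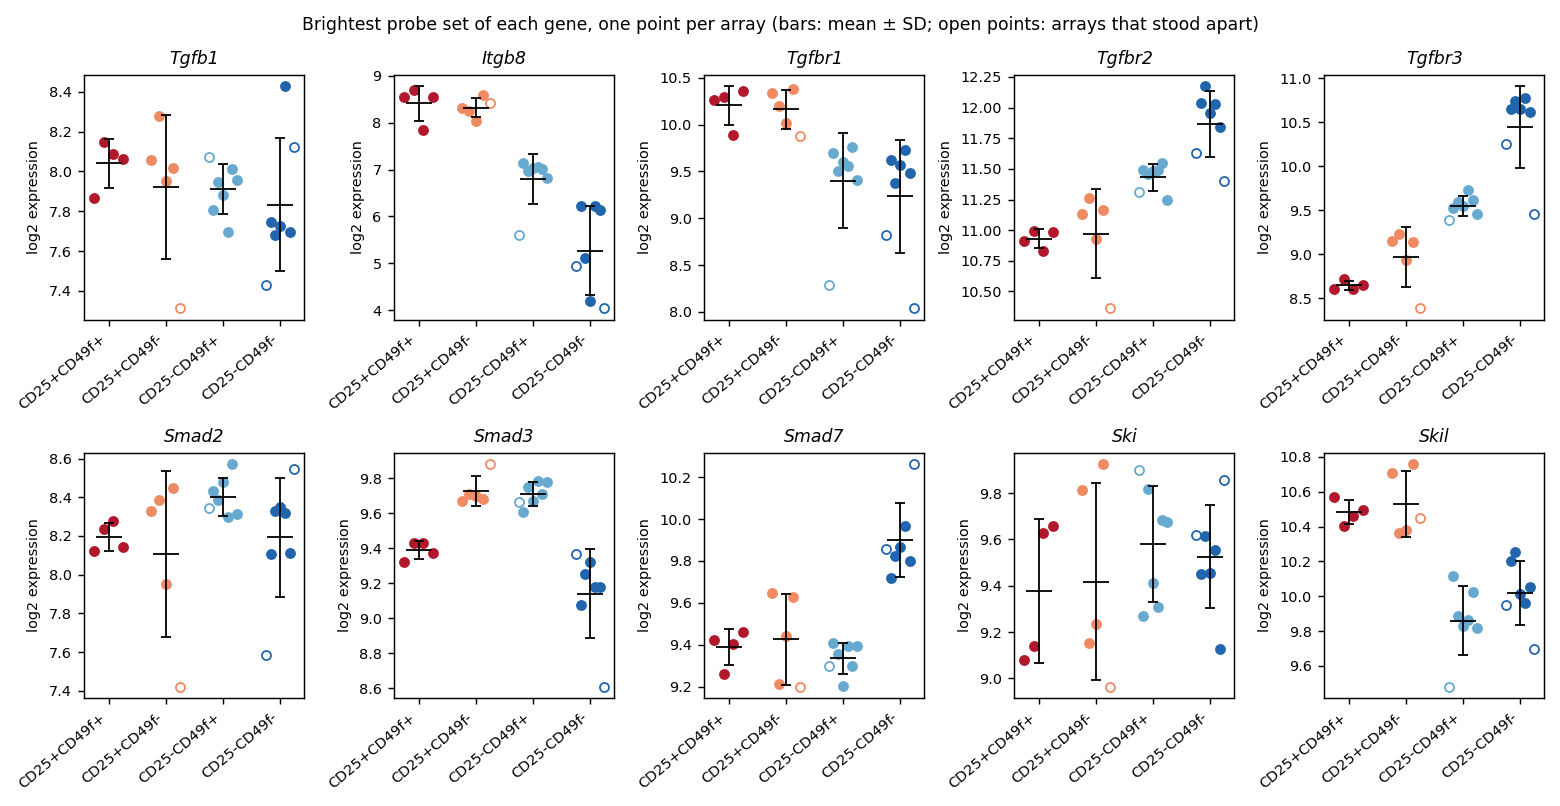
Log2 expression (vertical axis) of the brightest probe set of each of the 10 genes in the 4 groups, with a point per array, bars for the mean ± SD and open points for the 4 arrays that stood apart. Itgb8 runs downward across the groups to a mean of 5.27 in CD25-CD49f- cells, while Tgfbr3 runs upward to 10.45 there.

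Between CD25+CD49f+ and CD25+CD49f- cells 0 of the 22 member probe sets passed the test, where 1.11% of all probe sets did (0.198% higher, 0.913% lower); 1 had an unadjusted p under 0.05. Between CD25-CD49f+ and CD25-CD49f- cells 2 were higher and 4 lower (27.3% of the members), where 9.83% of all probe sets were called (5.45% higher, 4.38% lower). The comparison within CD25+ cells used 4 and 5 arrays and that within CD25- cells 7 and 7. Their median standard errors were 0.126 and 0.101, so a like difference was less readily called within CD25+ cells. Between CD25+CD49f- and CD25-CD49f- cells 5 were higher and 3 lower (36.4% of the members), where 9.96% of all were called (6.07% higher, 3.89% lower). CD25+CD49f+ against CD25-CD49f- cells gave 3 higher and 4 lower (31.8% of the members), where 9.29% of all were called (5.07% higher, 4.22% lower). Among CD49f+ cells, CD25+ against CD25- gave 2 higher and 1 lower (13.6% of the members), where 3.24% of all were called (1.58% higher, 1.66% lower). CD25+CD49f- against CD25-CD49f+ cells gave 3 higher and 2 lower (22.7% of the members), where 5.14% of all were called (3.02% higher, 2.12% lower). The members were chosen with earlier results of these data known, so these shares are a description. Median differences over the 22 probe sets lay between -0.07 and 0.05, and over all probe sets between -0.03 and 0.04. Without the 4 arrays that stood apart, all 31 called differences kept their direction and their call, and 15 more were called, 2 of them between CD25+CD49f+ and CD25+CD49f- cells. Leaving out CD25-CD49f- replicate 7 alone gave 1 call between CD25+CD49f+ and CD25+CD49f- cells and 6 between CD25+CD49f+ and CD25-CD49f+ cells. That array is in none of these groups, so the differences stayed the same and only the shared estimate of spread and the adjustment changed. The count of CD25+CD49f- against CD25-CD49f+ cells fell to 2 or 3 without any of CD25-CD49f+ replicates 2 to 6 or CD25+CD49f- replicates 1, 3 and 5. All 31 also kept their direction within the arrays without Y-linked transcripts and within the Y-linked arrays without Xist, where groups held 2 to 4 arrays and 15 and 6 of them were called.

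**Figure D2:**
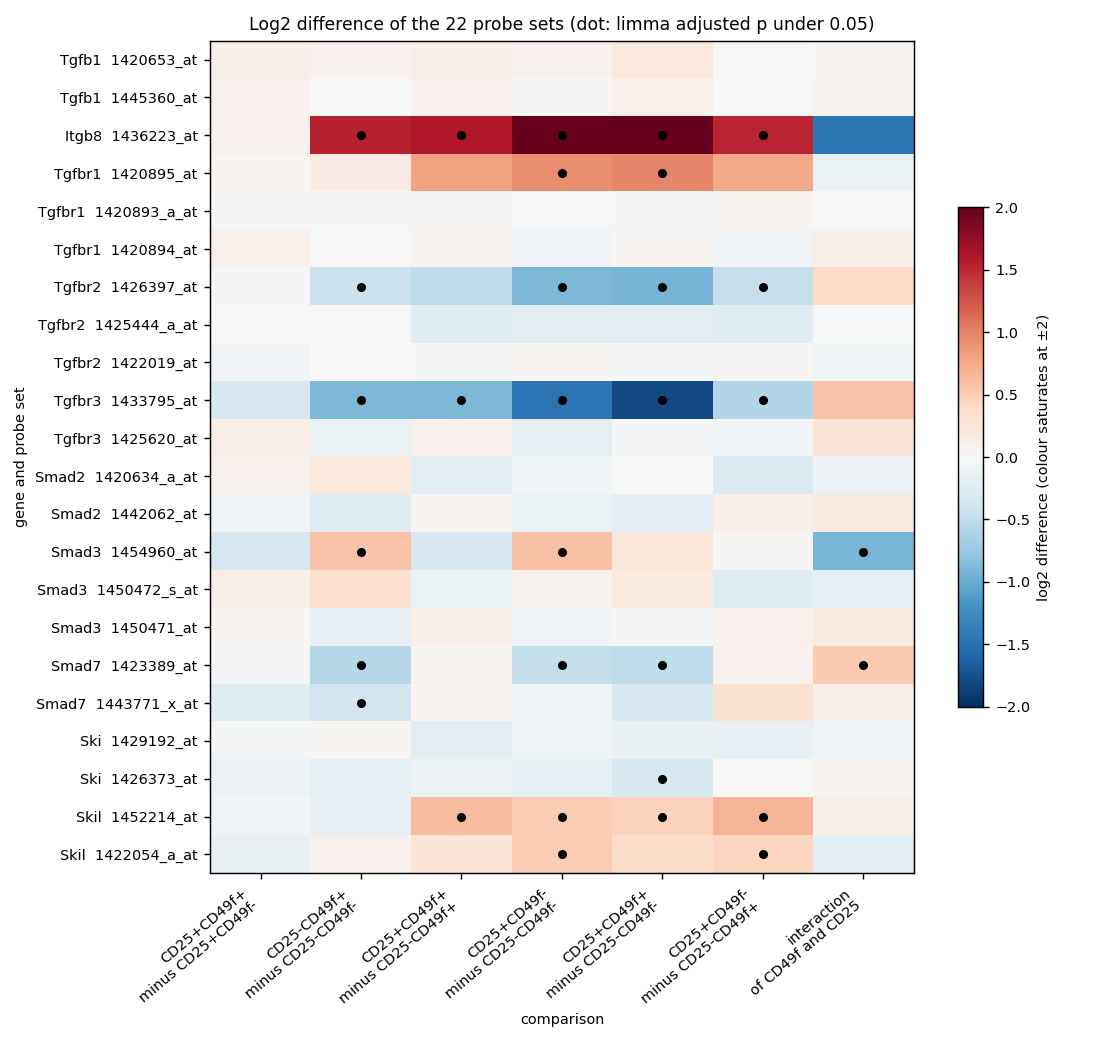
Log2 difference (colour, first-named group minus second) of each of the 22 probe sets (rows) in the 6 comparisons of groups and in the interaction of CD49f and CD25 (columns), with a dot where the limma adjusted p was under 0.05. The column of CD25+CD49f+ minus CD25+CD49f- holds no dot, and the column of CD25+CD49f- minus CD25-CD49f- holds 8.

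The promoters of the 4 members below are shown because each of these genes passed the test in CD25+CD49f- against CD25-CD49f- cells and its promoter could be read here. Each is the 250 bases before the RefSeq start site (GRCm38.p6), 5′ to 3′ on the gene's strand, and capitals mark CAGAC, the Smad-binding motif searched on both strands (as CAGAC or GTCTG). They lie at chr12:119238277-119238526 (minus strand) for Itgb8, chr4:47352972-47353221 (plus strand) for the upstream start of Tgfbr1, chr9:116175364-116175613 (minus strand) for Tgfbr2 and chr9:63757995-63758244 (minus strand) for Smad3.
Itgb8: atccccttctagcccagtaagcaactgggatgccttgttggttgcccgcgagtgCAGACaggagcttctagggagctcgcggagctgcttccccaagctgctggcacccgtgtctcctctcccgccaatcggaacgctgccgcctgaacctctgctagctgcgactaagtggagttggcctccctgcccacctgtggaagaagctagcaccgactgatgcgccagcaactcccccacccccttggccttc
Tgfbr1: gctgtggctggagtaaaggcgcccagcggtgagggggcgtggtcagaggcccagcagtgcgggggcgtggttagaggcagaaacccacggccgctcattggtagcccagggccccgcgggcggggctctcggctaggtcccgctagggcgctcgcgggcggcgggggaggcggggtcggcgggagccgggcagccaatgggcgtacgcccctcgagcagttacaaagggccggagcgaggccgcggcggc
Tgfbr2: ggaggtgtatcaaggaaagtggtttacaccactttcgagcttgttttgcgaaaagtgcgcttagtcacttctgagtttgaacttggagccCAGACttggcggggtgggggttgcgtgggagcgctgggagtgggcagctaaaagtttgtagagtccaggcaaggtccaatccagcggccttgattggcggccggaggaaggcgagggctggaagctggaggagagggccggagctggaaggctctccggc
Smad3: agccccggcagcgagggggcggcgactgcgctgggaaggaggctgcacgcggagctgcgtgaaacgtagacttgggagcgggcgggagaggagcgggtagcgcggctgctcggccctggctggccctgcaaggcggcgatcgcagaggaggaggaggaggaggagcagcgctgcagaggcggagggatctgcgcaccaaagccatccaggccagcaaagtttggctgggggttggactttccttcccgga
The motif stood once in the Itgb8 window, at position -196 from the start site, and once in that of Tgfbr2, at position -160. These letters were absent from the upstream Tgfbr1 window and from that of Smad3. Tgfbr1 has another RefSeq start, whose window (chr4:47385966-47386215, not shown) holds the motif once, at position -203. Of 32851 mouse promoter windows of this length, 42.2% held the motif. The longer GTCTAGAC was in none of these 4 windows and in 0.167% of all.

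Tgfb1 (chr7:25687002-25705077, GRCm38.p6, plus strand), the ligand, passed the test in none of the comparisons. Its brighter probe set averaged 8.04 ± 0.12 in CD25+CD49f+ cells (mean ± SD of n = 4), 7.92 ± 0.36 in CD25+CD49f- cells (n = 5), 7.91 ± 0.13 in CD25-CD49f+ cells (n = 7) and 7.83 ± 0.33 in CD25-CD49f- cells (n = 7). The groups overlapped in all 6 comparisons. The widest pairwise difference, CD25+CD49f+ minus CD25-CD49f- cells, was 0.21 (95% confidence interval -0.12 to 0.53, limma adjusted p = 0.576). The other probe set of Tgfb1 lay near the absent range and was called nowhere.

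Itgb8 (chr12:119162803-119238276, minus strand) had the largest group differences of the 10 genes, with more in CD25+ than in CD25- cells. It read 8.56, 8.69, 7.85 and 8.54 in CD25+CD49f+ cells and 8.31, 8.24, 8.03, 8.60 and 8.42 in CD25+CD49f- cells. CD25-CD49f+ arrays ran from 5.60 through a median of 7.01 to 7.13, and CD25-CD49f- arrays from 4.04 through 5.11 to 6.23. Every CD25+ array was above every CD25- array, and all 7 CD25-CD49f- arrays were in the absent range. Within CD25-CD49f+ cells replicate 1, which stood apart, was the low array and the only one of the 7 that overlapped with CD25-CD49f- cells.

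By limma, Itgb8 was higher in CD25+CD49f- cells than in CD25-CD49f- cells by 3.06 ± 0.34 (SE, adjusted p = 3.98e-07). CD25+CD49f+ cells exceeded CD25-CD49f- cells by 3.15 ± 0.36 (adjusted p = 7.90e-07). By the absent range, a rough guide, the level in CD25-CD49f- cells cannot be told from background, so no fold against them is given. Differences from them are as measured and may be understated. The Itgb8 level of CD25-CD49f+ cells was intermediate, as was the mean of the 4 regulatory T cell markers, whose part in this was not tested. Itgb8 in CD25-CD49f+ cells was above that in CD25-CD49f- cells by 1.54 ± 0.31 (adjusted p = 0.00125) and below both CD25+ groups: CD25+CD49f+ cells were higher by 1.61 ± 0.36 (limma adjusted p = 0.00931) and CD25+CD49f- cells by 1.52 ± 0.34 (adjusted p = 0.00567). Between CD25+CD49f+ and CD25+CD49f- cells the difference was 0.09 (95% confidence interval -0.71 to 0.89). All 5 calls held when any 1 array was left out, and without the 4 arrays that stood apart the differences were 2.72, 2.83, 1.43, 1.41 and 1.29 in the order given. Within each kind of array by sex transcripts, CD25+CD49f- cells were above CD25-CD49f- cells by 3.16 (arrays without Y-linked transcripts) and by 2.85 (Y-linked arrays), with limma adjusted p-values of 0.00149 and 0.0186.

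The type I receptor gene Tgfbr1 (chr4:47353222-47414926, plus strand) was higher in CD25+ cells. Its brightest probe set read 10.26, 10.30, 9.89 and 10.36 in CD25+CD49f+ cells and 10.34, 10.20, 10.02, 10.38 and 9.88 in CD25+CD49f- cells. Levels in CD25-CD49f+ cells extended from 8.28 through a median of 9.56 to 9.76, and CD25-CD49f- arrays from 8.04 through 9.48 to 9.73. No CD25+ array overlapped with a CD25- array. By limma, CD25+CD49f- cells exceeded CD25-CD49f- cells by 0.93 ± 0.25 (adjusted p = 0.0143) and CD25+CD49f+ cells exceeded them by 0.97 ± 0.26 (adjusted p = 0.0179).

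Against CD25-CD49f+ cells the differences of Tgfbr1 were 0.80 for CD25+CD49f+ cells (adjusted p = 0.126) and 0.76 for CD25+CD49f- cells (adjusted p = 0.0839), and neither was called. The low arrays of both CD25- groups were among those that stood apart. Without these 4 arrays the 4 differences, in the order given, were 0.68, 0.65, 0.62 and 0.64, and all 4 were called (limma adjusted p from 5.03e-05 to 2.08e-04). The call of CD25+CD49f+ over CD25-CD49f- cells was lost when CD25+CD49f+ replicate 1, 2 or 4 was left out (adjusted p up to 0.064). No CD49f difference of Tgfbr1 was called: CD25+CD49f+ minus CD25+CD49f- cells was 0.04 (95% confidence interval -0.54 to 0.63) and CD25-CD49f+ minus CD25-CD49f- cells 0.17 (-0.30 to 0.63). The other 2 probe sets of Tgfbr1 were in the absent range and none of their differences was called.

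The type II receptor gene Tgfbr2 (chr9:116087695-116175363, minus strand) ran the other way. Its brightest probe set read 10.91, 10.99, 10.83 and 10.99 in CD25+CD49f+ cells and 11.13, 11.27, 10.93, 11.17 and 10.36 in CD25+CD49f- cells. CD25-CD49f+ arrays ran from 11.24 through 11.49 to 11.54, and CD25-CD49f- arrays from 11.40 through 11.96 to 12.18. Every CD25+CD49f+ array was below every CD25- array, and CD25+CD49f- cells overlapped with CD25-CD49f+ cells. Limma gave -0.93 ± 0.14 for CD25+CD49f+ minus CD25-CD49f- cells (adjusted p = 4.00e-05) and -0.89 ± 0.13 for CD25+CD49f- minus CD25-CD49f- cells (adjusted p = 2.75e-05).

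CD25-CD49f+ cells again lay between: Tgfbr2 was lower there than in CD25-CD49f- cells by limma (-0.43 ± 0.12, adjusted p = 0.0205). CD25+CD49f- minus CD25-CD49f+ cells gave -0.46 (adjusted p = 0.0403). CD25+CD49f+ minus CD25-CD49f+ cells gave a like -0.50 that missed the threshold (adjusted p = 0.0516). Without the 4 arrays that stood apart these 3 differences were -0.55, -0.33 and -0.52, each called. Leaving out CD25-CD49f- replicate 3 or CD25-CD49f+ replicate 7 ended the call of CD25-CD49f+ against CD25-CD49f- cells (adjusted p up to 0.054). The call of CD25+CD49f- against CD25-CD49f+ cells was lost in 7 of the 23 leave-outs, those of CD25-CD49f+ replicates 2 to 6 and CD25+CD49f- replicates 3 and 5. The other 2 probe sets of Tgfbr2 were in the absent range and uncalled.

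Betaglycan, encoded by Tgfbr3 (chr5:107106567-107289629), showed the largest fall of the 3 receptors. It read 8.60, 8.72, 8.61 and 8.65 in CD25+CD49f+ cells and 9.15, 9.23, 8.94, 9.14 and 8.39 in CD25+CD49f- cells. Levels in CD25-CD49f+ cells extended from 9.39 through 9.55 to 9.73, and CD25-CD49f- arrays from 9.46 through 10.65 to 10.78. All CD25+ arrays were below all CD25- arrays. CD25-CD49f- replicate 7, which stood apart, was the low array of its group and alone overlapped with CD25-CD49f+ cells.

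The limma difference of Tgfbr3 in CD25+CD49f+ minus CD25-CD49f- cells was -1.80 ± 0.18 (3.49-fold lower, adjusted p = 1.09e-07). The difference of CD25+CD49f- minus CD25-CD49f- cells was -1.48 ± 0.17 (2.79-fold lower, adjusted p = 7.84e-07), and that of CD25-CD49f+ minus CD25-CD49f- cells -0.90 ± 0.16 (1.86-fold lower, adjusted p = 2.50e-04). CD25+CD49f+ minus CD25-CD49f+ cells gave -0.90 ± 0.18 (adjusted p = 0.00341). These 4 calls held when any 1 array was left out. CD25+CD49f- minus CD25-CD49f+ cells gave -0.58 (adjusted p = 0.0484), a call that 18 of the 23 leave-outs ended. The difference of CD25+CD49f+ minus CD25+CD49f- cells was -0.32 (95% confidence interval -0.73 to 0.08). It was -0.47 and called (limma adjusted p = 5.73e-04) without the 4 arrays that stood apart, which take away the low CD25+CD49f- replicate 5. The dimmer probe set of Tgfbr3 was in the absent range and uncalled.

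Smad2 (mouse chromosome 18), a receptor-activated Smad, was called in no comparison. Its brighter probe set averaged 8.19 ± 0.07 in CD25+CD49f+ cells (mean ± SD of n = 4), 8.11 ± 0.43 in CD25+CD49f- cells (n = 5), 8.40 ± 0.10 in CD25-CD49f+ cells (n = 7) and 8.19 ± 0.31 in CD25-CD49f- cells (n = 7). Its widest pairwise difference was -0.30 for CD25+CD49f- minus CD25-CD49f+ cells (95% confidence interval -0.60 to 0.01, limma adjusted p = 0.418). The dimmer probe set of Smad2 gave -0.26 for CD25-CD49f+ minus CD25-CD49f- cells (limma adjusted p = 0.165). There the brighter one gave 0.21 (limma adjusted p = 0.429), so their signs differed and neither was called.

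Smad3 (chr9:63646766-63757994, minus strand), the other receptor-activated Smad here, had CD49f differences of opposite sign in the 2 CD25 gates, of which that in CD25- cells was called. It read 9.32, 9.43, 9.43 and 9.38 in CD25+CD49f+ cells and 9.67, 9.71, 9.70, 9.68 and 9.88 in CD25+CD49f- cells. CD25-CD49f+ arrays ran from 9.61 through 9.71 to 9.78, and CD25-CD49f- arrays from 8.61 through 9.18 to 9.37. The CD25+CD49f- and CD25-CD49f+ ranges overlapped and lay above all arrays of the other two groups.

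By limma, Smad3 was higher in CD25-CD49f+ cells than in CD25-CD49f- cells by 0.57 ± 0.09 (adjusted p = 3.87e-05) and higher in CD25+CD49f- cells than in CD25-CD49f- cells by 0.59 ± 0.09 (adjusted p = 7.50e-05). Within CD25+ cells the difference of CD49f+ minus CD49f- was -0.34 ± 0.11, with no overlap but not called (adjusted p = 0.241). It was -0.30 and called (limma adjusted p = 0.0151) without the 4 arrays that stood apart. The unchanged -0.34 was also called without CD25-CD49f- replicate 7 alone (limma adjusted p = 0.011). That array is in neither group, and leaving it out alters only the shared estimate of spread and the adjustment. CD25+CD49f+ minus CD25-CD49f+ cells gave a like -0.32 (adjusted p = 0.0957), which was -0.33 and called without those 4 arrays (adjusted p = 9.69e-04). CD25+CD49f- minus CD25-CD49f+ cells gave 0.02 (95% confidence interval -0.18 to 0.21). The other 2 probe sets of Smad3 were in the absent range and uncalled; the brighter of them gave 0.32 for CD25-CD49f+ minus CD25-CD49f- cells (adjusted p = 0.0528).

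Smad7 (mouse chromosome 18), the inhibitory Smad and itself a known target of TGF-beta signalling, was lower in each other group than in CD25-CD49f- cells. Its brighter probe set read 9.42, 9.26, 9.40 and 9.46 in CD25+CD49f+ cells and 9.65, 9.21, 9.44, 9.63 and 9.20 in CD25+CD49f- cells. Levels in CD25-CD49f+ cells extended from 9.20 through 9.35 to 9.41, and CD25-CD49f- arrays from 9.72 through 9.86 to 10.26. All CD25-CD49f- arrays were above all others. The limma differences from CD25-CD49f- cells were -0.51 ± 0.10 for CD25+CD49f+ cells (adjusted p = 7.31e-04), -0.47 ± 0.09 for CD25+CD49f- cells (adjusted p = 7.69e-04) and -0.56 ± 0.08 for CD25-CD49f+ cells (adjusted p = 3.38e-05).

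The other probe set of Smad7 gave part of this. Its limma difference for CD25-CD49f+ minus CD25-CD49f- cells was called (-0.38 ± 0.11, adjusted p = 0.0282), a call that 7 leave-outs ended (CD25-CD49f- replicates 1, 2, 5 and 6 and CD25-CD49f+ replicates 1, 4 and 7). For CD25+CD49f- minus CD25-CD49f- cells it gave -0.08 (95% confidence interval -0.33 to 0.17), of the same sign as the brighter probe set but not called. On this dimmer probe set CD25+CD49f+ cells averaged 9.11 and CD25-CD49f- cells 9.43, which was not called either. CD25-CD49f- replicate 7, which stood apart, was low on it (8.77, next array 9.33).

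Of the 2 corepressor genes, Skil (chr3:31095058-31122923) was higher in both CD25+ groups than in both CD25- groups, with no called difference by CD49f. Its brighter probe set read 10.57, 10.40, 10.46 and 10.50 in CD25+CD49f+ cells and 10.71, 10.36, 10.38, 10.76 and 10.45 in CD25+CD49f- cells. CD25-CD49f+ arrays ran from 9.48 through 9.86 to 10.11, and CD25-CD49f- arrays from 9.70 through 10.01 to 10.25. All CD25+ arrays were above all CD25- arrays.

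By limma, Skil was higher in CD25+CD49f+ cells than in CD25-CD49f+ cells by 0.62 ± 0.11 (adjusted p = 8.92e-04) and than in CD25-CD49f- cells by 0.46 ± 0.11 (adjusted p = 0.00661). CD25+CD49f- cells exceeded CD25-CD49f+ cells by 0.67 ± 0.10 (adjusted p = 9.21e-05) and CD25-CD49f- cells by 0.51 ± 0.10 (adjusted p = 0.00127). All 4 calls held in every leave-out. The differences between CD49f+ and CD49f- cells were -0.05 within CD25+ cells (95% confidence interval -0.30 to 0.20) and -0.16 within CD25- cells (-0.36 to 0.04). The dimmer probe set, in the absent range, was higher in CD25+CD49f- cells than in CD25-CD49f- cells by 0.51 (limma adjusted p = 0.00291) and than in CD25-CD49f+ cells by 0.42 (adjusted p = 0.0234), and the second of these calls was lost without CD25+CD49f- replicate 1 or 2 or CD25-CD49f+ replicate 3 or 4.

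Ski (chr4:155154075-155222535) differed less between groups than Skil by the brighter probe sets, while its arrays spread more within each group. Its brighter probe set was called nowhere and averaged 9.38 ± 0.31 in CD25+CD49f+ cells (mean ± SD of n = 4), 9.42 ± 0.43 in CD25+CD49f- cells (n = 5), 9.58 ± 0.25 in CD25-CD49f+ cells (n = 7) and 9.53 ± 0.22 in CD25-CD49f- cells (n = 7). The other fell in CD25+CD49f+ relative to CD25-CD49f- cells by limma (-0.31 ± 0.08, adjusted p = 0.0118), and this call was lost without CD25+CD49f+ replicate 1 (adjusted p = 0.051).

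Whether CD49f went with a different change in CD25+ than in CD25- cells was tested as the interaction, the CD49f+ minus CD49f- difference within CD25+ cells minus that within CD25- cells. Of the 22 member probe sets 1 was higher and 1 lower (9.09% of the members), where 3.13% of all probe sets were called (0.604% higher, 2.52% lower). For Smad3 the interaction was -0.91 ± 0.14 (limma adjusted p = 1.29e-04), since CD49f went with -0.34 in CD25+ and 0.57 in CD25- cells. It held in every leave-out, and was -0.82 (adjusted p = 1.56e-06) without the 4 arrays that stood apart, -0.71 where Y-linked transcripts were missing (adjusted p = 0.0465) and -1.09 in the Y-linked arrays (adjusted p = 0.0764).

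For Smad7 the interaction was 0.53 ± 0.13 (limma adjusted p = 0.0265), with -0.04 in CD25+ and -0.56 in CD25- cells. That call was lost without CD25+CD49f+ replicate 1, 3 or 4 or CD25+CD49f- replicate 2 or 5 (adjusted p up to 0.076), which leaves 1 member called in the interaction, and its other probe set gave 0.14 (95% confidence interval -0.23 to 0.51). For Itgb8 it was -1.45 ± 0.50 and missed the threshold (adjusted p = 0.153), and without the low CD25-CD49f+ replicate 1 it was called (adjusted p = 0.044). For Tgfbr3 it was 0.58 ± 0.25 (adjusted p = 0.344), and 0.64 and called (limma adjusted p = 1.73e-04) without the 4 arrays that stood apart.

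**Figure D3:**
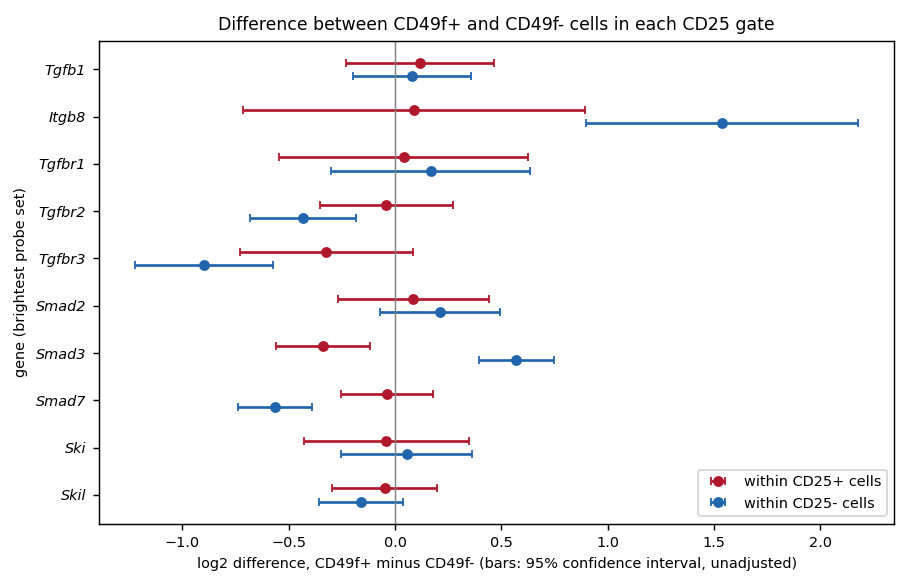
Log2 difference of CD49f+ minus CD49f- cells (horizontal axis) for the brightest probe set of each of the 10 genes, within CD25+ cells and within CD25- cells, with 95% confidence intervals. Smad3 lies at -0.34 within CD25+ cells and at 0.57 within CD25- cells, and Itgb8 at 0.09 and 1.54.

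Other genes of the pathway were taken from a list of 88, of which 83 were measured, each by its brightest probe set. Between CD25+CD49f+ and CD25+CD49f- cells 1 was higher and 6 lower (1.66% of all 18193 genes were called, 0.286% higher and 1.37% lower). Between CD25-CD49f+ and CD25-CD49f- cells 18 were higher and 9 lower (12.4% of all genes, 7.50% higher and 4.94% lower). CD25+CD49f- against CD25-CD49f- cells gave 19 higher and 10 lower (13.1% of all genes, 8.78% higher and 4.36% lower). CD25+CD49f+ against CD25-CD49f- cells gave 17 higher and 12 lower (12.2%, 7.15% higher and 5.10% lower). CD25+CD49f+ against CD25-CD49f+ cells gave 4 higher and 5 lower (5.02%, 2.45% higher and 2.57% lower). CD25+CD49f- against CD25-CD49f+ cells gave 9 higher and 4 lower (7.73%, 4.60% higher and 3.13% lower). Without CD25-CD49f- replicate 7, an array of neither group, CD25+CD49f+ against CD25-CD49f+ cells gave 14 calls in place of 9. In the interaction 4 were higher and 13 lower (4.55%, 0.759% higher and 3.79% lower). No called comparison of a gene named below had another probe set of that gene called the opposite way. Other probe sets of some of these genes were not called at all. Wherever they were called, Ltbp3 had 1 of 4 probe sets called, and Itgb3, Acvr1b and Smurf1 had 1 of 2. Within CD25+ cells Id2 had 1 of 3 and Itgb1 3 of 6. Nrp1 had 4 of 4 in its comparisons with CD25-CD49f- cells. The median difference of the 83 genes lay between -0.04 and 0.03 in each of these comparisons, and that of all genes between -0.02 and 0.03.

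**Figure D4:**
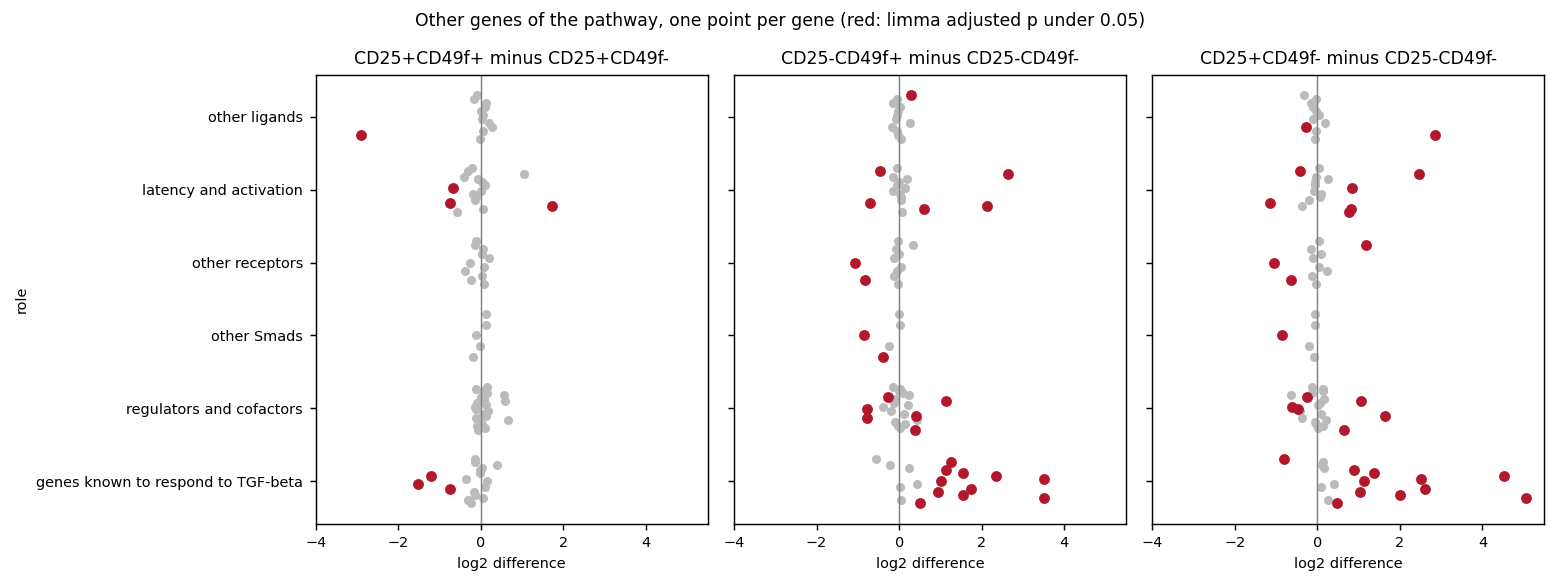
Log2 difference (horizontal axis) of the other pathway genes by role (rows), with a point per gene, red where the limma adjusted p was under 0.05, in CD25+CD49f+ minus CD25+CD49f-, CD25-CD49f+ minus CD25-CD49f- and CD25+CD49f- minus CD25-CD49f- cells. Of the 17 measured genes known to respond to TGF-beta, 0, 11 and 10 were higher in these comparisons in that order and 3, 0 and 1 lower. Of all genes 1.66%, 12.4% and 13.1% were called in the same order.

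Among 12 other ligands few were called. Bmp2, a bone morphogenetic protein, averaged 2.91 in CD25+CD49f+, 5.80 in CD25+CD49f-, 2.93 in CD25-CD49f+ and 2.96 in CD25-CD49f- cells. It was the only ligand called within CD25+ cells, at -2.89 ± 0.14 for CD49f+ minus CD49f- (limma adjusted p = 2.02e-13), and all its levels were under 6.50. Tgfb3, another TGF-beta, fell in CD25+CD49f+ relative to CD25-CD49f+ cells by limma (-0.70, adjusted p = 1.80e-04), also in the absent range.

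Of 16 genes of latency and activation, 3 were higher and 2 lower in CD25-CD49f+ cells than in CD25-CD49f- cells. Of all genes 7.50% were higher and 4.94% lower in that comparison. Nrp1, a coreceptor known to bind latent TGF-beta, averaged 10.73 in CD25+CD49f+, 9.69 in CD25+CD49f-, 9.86 in CD25-CD49f+ and 7.22 in CD25-CD49f- cells. Its limma differences from CD25-CD49f- cells were 3.52, 2.47 and 2.65 for those groups, the largest adjusted p being 4.24e-08. Itgb1, the beta chain that pairs with CD49f, was higher in CD49f+ cells in both gates, by 1.74 within CD25+ (limma adjusted p = 9.35e-04) and by 2.13 within CD25- cells (adjusted p = 3.40e-07). Itgb3, another integrin chain that pairs with alpha v, was lower with CD49f in both gates, by limma differences of -0.74 within CD25+ (adjusted p = 0.00807) and -0.70 within CD25- cells (adjusted p = 2.33e-04). Its mean in CD25+CD49f+ cells, 6.04, was in the absent range. Nrros, which anchors latent TGF-beta on myeloid cells, was -0.74 in CD25+CD49f+ minus CD25-CD49f- cells (limma adjusted p = 7.24e-07). Ltbp3, a latent TGF-beta binding protein, was highest in CD25+CD49f- cells at a mean of 6.85, with a limma difference of 0.84 from CD25-CD49f- cells (adjusted p = 1.03e-04). Its means in CD25+CD49f+, CD25-CD49f+ and CD25-CD49f- cells, 6.19, 6.16 and 6.01, were in the absent range.

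Among 11 other receptors, 2 were lower and none higher in CD25-CD49f+ cells than in CD25-CD49f- cells. Of all genes 12.4% were called there (4.94% lower), so 2 of 11 says little of receptors as a set. The activin type I receptor Acvr1b averaged 9.19 in CD25+CD49f+, 9.42 in CD25+CD49f-, 9.25 in CD25-CD49f+ and 10.07 in CD25-CD49f- cells. Its differences from CD25-CD49f- cells by limma were -0.88, -0.65 and -0.82 (adjusted p at most 2.57e-07). Bmpr2, the type II receptor of bone morphogenetic proteins, rose by 1.18 in CD25+CD49f- relative to CD25-CD49f- cells (limma adjusted p = 4.05e-04). Its mean in CD25-CD49f- cells, 6.41, was in the absent range.

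Of the 5 other Smads, Smad5, which carries bone morphogenetic protein signals, averaged 6.98 in CD25+CD49f+, 7.10 in CD25+CD49f-, 7.10 in CD25-CD49f+ and 7.95 in CD25-CD49f- cells. It was lower than in CD25-CD49f- cells by limma in all 3 (-0.98, -0.85 and -0.86, adjusted p at most 2.13e-05). Smad1, of the same branch, was -0.39 in CD25-CD49f+ minus CD25-CD49f- cells (limma adjusted p = 0.0102). Smad4, the partner of all receptor-activated Smads, was called in none of the comparisons.

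Among 22 regulators and cofactors, 3 were higher and 3 lower both in CD25-CD49f+ and in CD25+CD49f- cells, each against CD25-CD49f- cells. Of all genes 12.4% were called in the first of these comparisons and 13.1% in the second. Pmepa1, a known TGF-beta target that sequesters receptor-activated Smads, averaged 8.41 in CD25+CD49f+, 8.28 in CD25+CD49f-, 7.06 in CD25-CD49f+ and 6.65 in CD25-CD49f- cells. Relative to CD25-CD49f- cells it rose by 1.76 in CD25+CD49f+ cells (limma adjusted p = 3.35e-09) and by 1.63 in CD25+CD49f- cells (adjusted p = 3.30e-09). Tgif1, a corepressor that binds Smad2, was higher than in CD25-CD49f- cells by 1.64 in CD25+CD49f+, 1.05 in CD25+CD49f- and 1.13 in CD25-CD49f+ cells (limma adjusted p at most 0.00328). Its mean in CD25-CD49f- cells, 6.38, was in the absent range. The ubiquitin ligase Smurf1, which targets Smads and receptors, was lower than in CD25-CD49f- cells by limma: -0.59, -0.47 and -0.79 in the same 3 groups (adjusted p at most 0.00117).

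Of the 17 measured genes known to respond to TGF-beta, several are also markers of regulatory or effector T cells. In CD25-CD49f+ against CD25-CD49f- cells 11 were higher and none lower, with a median of 1.01 beside -0.02 for all genes. Of all genes 7.50% were higher and 4.94% lower in this comparison. Foxp3 was 3.51 higher there (limma adjusted p = 1.41e-15), Ifng, the gene of interferon-gamma, 3.51 (adjusted p = 2.65e-11) and Itgae, the alpha E integrin chain CD103, 2.36 (adjusted p = 2.67e-10). All 3 had a mean in the absent range in CD25-CD49f- cells, so these are differences as measured and may be understated. Within CD25+ cells 3 were lower and none higher with CD49f, where 1.37% of all genes were lower and 0.286% higher. Id2, an inhibitor of DNA binding, was -1.52 there (limma adjusted p = 8.82e-04), Itgae -1.21 (adjusted p = 0.00154) and Gzmb, granzyme B, -0.74 (adjusted p = 0.00149). In the interaction 10 of the 17 were lower and none higher, with a median of -1.16 beside 0.03 for all genes. Of all genes 3.79% were lower and 0.759% higher in it.

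The genes most like each member over the 23 arrays were described by Pearson's r, without a test, since arrays share groups. Itgb8 was most like Vav2 (r = 0.97), Mbnl3 and Swap70. Tgfbr3 (r = 0.97) was the second gene for Tgfbr2, after Stk38 (r = 0.97), and Tgfbr3 was most like Nfe2l2 (r = 0.97). Tgfbr1 was most like Tasp1 (r = 0.97), Smad3 like Farsb (r = 0.93), Skil like Rcn1 (r = 0.93) and Smad7 like Clcf1 (r = 0.91). The lowest best match was that of Ski, with Klf7 (r = 0.85).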

How the data were processed

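The authors deposited log2 levels for 45101 probe sets on 23 arrays, made with RMA (version not stated) per the submitters' processing notes, and these were used unscaled. After 64 control probe sets were left out, 45037 were tested: 34945 named 1 gene in the platform annotation, 932 several and 9160 none, and 34741 of the 34945 matched RefSeq (GRCm38.p6) by Entrez identifier. Groups came from the sample titles. Group means were modelled by limma 3.58.1 under R 4.3.3 (lmFit, contrasts.fit and eBayes) in 1 fit of all 23 arrays, adjusted by Benjamini-Hochberg over all probe sets and called at an adjusted p under 0.05. The fit was tested on simulated data with 201 changed probe sets per comparison. Each probe set had independent noise of the same spread on every array. Arrays that stand apart and paired arrays were not simulated, so the simulation says nothing of them. Confidence intervals are 95% and unadjusted. The labels say nothing of separate animals beyond the word biological, so p-values cover only the spread among these samples, which may be technical in part. The number of arrays limits the precision.

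Every member probe set was reported. A gene was represented by its brightest probe set where counts are of genes. The named other genes are from up to 4 called genes per role and comparison with the smallest p, and the genes most like a member are the 3 with the highest Pearson correlation. The members and lists were chosen with earlier results of these data known. Arrays stood apart when their median correlation with their own group was more than 3 scaled MAD below the others. Pathway genes without a usable probe set were not analysed here, and no promoter was read for Tgfbr3, Skil or the genes on chromosome 18. Plots came from Python 3.11.15 with matplotlib 3.10.9.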

Additional observations from a re-analysis of the deposited data

Results flagged for a closer look

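In 10 of 88 sets of arrays of 1 probe set in 1 group, an array lay far from the rest of its group by Dixon's test, where chance gives about 1 in 20; 8 of the 10 were on arrays that stood apart. CD25-CD49f- replicate 7 was high for the dimmer Tgfb1 probe set (7.24, next array 6.57) and low for Tgfbr3 (9.46, next 10.25), for the brightest Smad3 probe set (8.61, next 9.08) and for the dimmer Smad7 probe set (8.77, next 9.33). CD25-CD49f+ replicate 1 was low for Itgb8 (5.60, next 6.82) and for the brightest Tgfbr1 probe set (8.28, next 9.41). CD25+CD49f- replicate 5 was high for Smad3 on its brightest (9.88, next 9.71) and its dimmest probe set (4.71, next 4.19). The remaining such arrays were so on probe sets in the absent range: CD25+CD49f+ replicate 3 was low for Tgfbr1 (4.11, next 4.63) and CD25+CD49f- replicate 1 high for Smad3 (5.70, next 5.30).

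The CD49f difference differed between CD25+ and CD25- cells by the limma interaction test for Smad3 (-0.91, adjusted p = 1.29e-04) and for Smad7 (0.53, adjusted p = 0.0265).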

How the results depend on the processing

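Each of 154 member differences was computed again under 15 alternatives and 23 leave-outs. Of 31 called, 0 reversed, 23 held their call in every leave-out and 5 held it in every setting. The counts of called member probe sets moved as follows. CD25+CD49f+ minus CD25+CD49f- cells had 0 and gave 2 with array weights and 2 without the arrays that stood apart. CD25-CD49f+ minus CD25-CD49f- cells had 6 and gave 2 in Y-linked arrays. CD25+CD49f+ minus CD25-CD49f+ cells had 3 and gave 7 with array weights, 5 with the compared groups alone, 7 without the arrays that stood apart, 5 with an Actb 3′ minus 5′ covariate, 1 without Y-linked arrays and 0 in them. CD25+CD49f- minus CD25-CD49f- cells had 8 and gave 4 without Y-linked arrays and 2 in them. CD25+CD49f+ minus CD25-CD49f- cells had 7 and gave 11 with array weights, 4 without Y-linked arrays and 4 in them. CD25+CD49f- minus CD25-CD49f+ cells had 5 and gave 2 with median scaling, 2 at an adjusted p under 0.01, 3 with Y-linked transcripts as a covariate, 3 with the Actb covariate, 0 without Y-linked arrays and 0 in them. The interaction had 2 and gave 4 with array weights, 1 with median scaling, 1 at 0.01, 1 without Y-linked arrays and 0 in them; the compared groups alone give no interaction value. The sex splits hold fewer arrays by construction, and the cause of the other shifts was not tested. Over the leave-outs the counts ran from 0 to 1, 4 to 8, 3 to 6, 8 to 9, 6 to 8, 2 to 7 and 1 to 3 in that order.

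Of the 83 pathway genes, CD25+CD49f+ minus CD25+CD49f- cells had 7 called and gave 12 with array weights, 11 without the arrays that stood apart, 3 without Y-linked arrays and 2 in them. CD25+CD49f+ minus CD25-CD49f+ cells had 9 and gave 18 with array weights, 17 with the compared groups alone, 20 without the arrays that stood apart and 4 in Y-linked arrays. CD25+CD49f- minus CD25-CD49f- cells had 29 and gave 15 in Y-linked arrays. CD25+CD49f- minus CD25-CD49f+ cells had 13 and gave 22 with array weights, 8 without Y-linked arrays and 7 in them. The interaction had 17 and gave 26 without the arrays that stood apart, 9 without Y-linked arrays and 8 in them.

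Over all 4 groups, replicate numbers gave no clear pairing of the arrays. Of 29 same-numbered pairs, 12 correlated above 0.1 (from -0.46 to 0.52), and 4 of 23 arrays correlated best with their own number. Replicates 1 to 4 of the 2 CD25+ groups matched in sex transcripts, with Xist in 1 and 2 and Y-linked transcripts in 3 and 4. Pairing within CD25+ cells alone was not tested. With the replicate block as a fixed effect the counts were 0, 6, 4, 8, 7, 4 and 2, and with the random replicate block 0, 6, 3, 8, 7, 4 and 2.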
